A study of Mus musculus with 2 samples.

Results

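The autophagy machinery comprised 44 genes of the 18987 in the deposited table. They were chosen by symbol: every Atg gene, Ulk1 to Ulk4, Wipi1 and Wipi2, the Gabarap and Map1lc3 genes, and 14 named partners, among them Becn1, Pik3c3, Sqstm1 and Epg5. The rule reads symbols only, though it was set with earlier results of these data known. One of the 44, Atg4a-ps, is a near copy of Atg4a and has no role of its own in what follows.

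The study sequenced RNA from RAW264.7 cells, a mouse macrophage-like line that turns into osteoclasts under RANKL, the cytokine that drives osteoclast formation. A control shRNA was carried by the cells of 1 library and an shRNA against Cpeb4 by those of the other, the knockdown library below. Cpeb4 encodes an RNA-binding protein of the cytoplasmic polyadenylation machinery. Both cultures received RANKL at 100 ng/ml, added 24 h after plating at a density of 7500 cells per cm2, and the series title gives day 3 of stimulation. The sources used here do not say how the shRNAs were delivered or whether the cells were pools or clones. With 1 library per group no difference below has a replicate check or a test, and all of them compare these 2 libraries.

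Autophagy wraps cytoplasm in a double membrane and delivers it to the lysosome. The ULK1 kinase complex starts the process, a class III phosphatidylinositol 3-kinase complex around Beclin 1 makes the lipid PI3P, and lipid-binding and lipid-moving proteins extend the membrane. A pair of ubiquitin-like conjugation reactions then attaches LC3 and GABARAP proteins, the Atg8 family, to the growing membrane, where cargo receptors such as p62 dock. In osteoclasts part of this machinery, LC3 and its conjugation enzymes included, is also known for its work at the ruffled border, through which lysosomal enzymes are secreted onto bone.

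Values are CPM, counts scaled to a common library depth, after TMM scaling, a method that estimates the depth of each library from the bulk of its genes. A log2 ratio is that of the knockdown over the control library, and the interval in brackets is its 95% counting interval, which covers counting error only. A gene passed the filter with a mean level of 1 CPM or more, as 43 of the 44 and 12086 of all genes did. Higher and lower mean at least 2-fold, a rule of size. The total was 79399680 counts for the control and 119350322 for the knockdown library. Cpeb4 itself went from 345 to 104 CPM, a log2 ratio of -1.73.

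The promoters of some members are shown first, because the MiT transcription factors, which drive autophagy and lysosome genes, bind the word CACGTG, in its stronger form GTCACGTG. The sequences are RefSeq windows of 300 bases, 250 before to 50 after an annotated start, on build GRCm38.p6, the assembly of the authors' mm10. Of the 44 members 36 had such a window. Capitals mark GTCACGTG on either strand in the windows of the LC3-conjugating enzyme gene Atg3 (chr16:45158579-45158878, plus strand) and of the PI3-kinase subunit gene Atg14 (chr14:47568385-47568684, minus strand). In the windows of Wipi1 (chr11:109611340-109611639, minus strand), the member with the lowest ratio, and of the p62 gene Sqstm1 (chr11:50210771-50211070, minus strand), capitals mark GGGCGG, the GC box, on either strand.
Atg3: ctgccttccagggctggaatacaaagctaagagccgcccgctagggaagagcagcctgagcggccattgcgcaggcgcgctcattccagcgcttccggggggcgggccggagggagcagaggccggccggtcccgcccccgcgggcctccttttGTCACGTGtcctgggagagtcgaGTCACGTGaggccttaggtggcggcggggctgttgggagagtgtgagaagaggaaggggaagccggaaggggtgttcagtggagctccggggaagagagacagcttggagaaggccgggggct
Atg14: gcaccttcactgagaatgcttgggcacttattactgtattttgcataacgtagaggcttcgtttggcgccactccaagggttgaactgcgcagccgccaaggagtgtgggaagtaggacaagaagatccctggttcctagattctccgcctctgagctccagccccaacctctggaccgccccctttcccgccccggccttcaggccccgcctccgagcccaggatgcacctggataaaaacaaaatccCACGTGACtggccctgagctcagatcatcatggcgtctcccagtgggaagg
Wipi1: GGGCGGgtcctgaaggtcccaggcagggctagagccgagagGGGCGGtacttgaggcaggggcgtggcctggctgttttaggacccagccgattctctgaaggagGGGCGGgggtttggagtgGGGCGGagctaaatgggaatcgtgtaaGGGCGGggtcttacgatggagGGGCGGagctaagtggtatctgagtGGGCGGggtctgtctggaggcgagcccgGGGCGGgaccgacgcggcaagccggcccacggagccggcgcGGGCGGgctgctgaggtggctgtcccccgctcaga
Sqstm1: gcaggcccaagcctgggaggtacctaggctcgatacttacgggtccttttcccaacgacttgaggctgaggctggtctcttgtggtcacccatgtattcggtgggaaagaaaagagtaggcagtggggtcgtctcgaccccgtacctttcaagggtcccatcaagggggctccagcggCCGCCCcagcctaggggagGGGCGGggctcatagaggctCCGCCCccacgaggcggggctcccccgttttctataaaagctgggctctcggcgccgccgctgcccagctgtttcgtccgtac

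The Atg3 window held GTCACGTG at 2 places, 96 and 73 bases before the annotated start. Searched on both strands, CACGTG was in the windows of 4 of the 36 members (11.1%), Atg3, Atg5, Atg7 and Atg14, against 12.2% of the 8785 genes past the filter that had a window. GTCACGTG, a longer form of the same word, was in 3 of 36 (8.33%) against 4.92%, of which the Atg3 window lay 44 bases, the Atg14 window 2215 bases and the Atg7 window 27999 bases from the 5′ end of the gene in GENCODE. Of all RefSeq windows of this length 7.15% held CACGTG and 2.25% held GTCACGTG. The form extended by AC was in no member window (0 of 36, and 0.865% of the genes past the filter). The GC box was in 23 of 36 (63.9%) against 69.9%, and in 35.7% of all windows. Wipi1 had it 9 times and Sqstm1 3 times. The AP-1 word TGACTCA was in 0 member windows and in 4.43% of the genes past the filter (5.20% of all windows). Of the 4 members with CACGTG, Atg7 had a log2 ratio of -0.99, Atg5 of -0.51, Atg3 of -0.24 and Atg14 of -0.10, and of the 7 members at least 2-fold lower 6 had a window, none with CACGTG. A match is a description of the letters in the window and no evidence of binding.

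The machinery as a whole was shifted towards lower levels in the knockdown library. Among the 43 that passed the filter 34 lay below 0 on the log2 scale, against 47.5% of all genes, and the median was -0.42, against 0.05 over all genes. By the rule of size 7 were lower, where 11.8% of all genes were, and 1 was higher, where 14.6% were. At 1.5-fold 17 were lower and 2 higher, beside 22.1% and 26.4% of all genes. At 4-fold 1 was lower and 0 were higher, beside 3.52% and 4.82%. The whole counting interval lay past 2-fold lower for 6 members, against 10.1% of all genes. The members were thus mostly below 0 by moderate amounts, with a share at least 2-fold lower of 16.3%, not far above the background, and few members at the higher end. Their summed share of the counts was 0.366% in the control library (0.365 to 0.367, exact binomial) and 0.268% in the knockdown library (0.267 to 0.269). This sum is weighted towards abundant genes, and Sqstm1 alone held 0.0929% and 0.0487%.

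**Figure D1:**
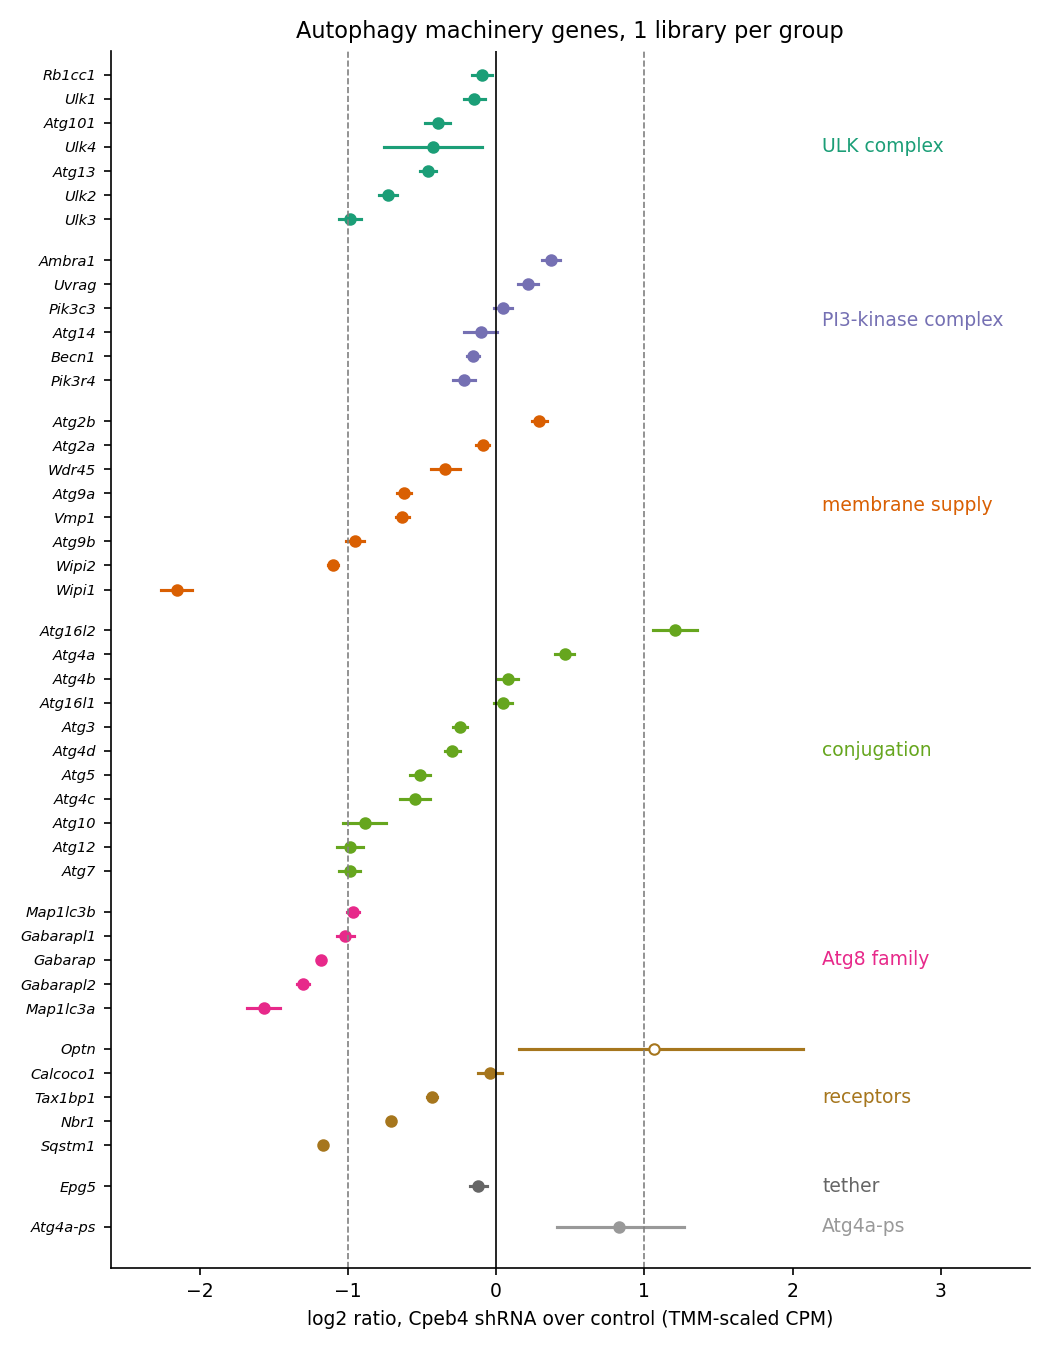
Log2 ratio of each of the 44 genes (x axis, Cpeb4 shRNA over control, TMM-scaled CPM), grouped by role. Points are the ratios, bars the 95% counting intervals, dashed lines 2-fold, and the open point (Optn) lies below the filter. The group labelled ULK complex also holds Ulk3 and Ulk4, which are not parts of that complex. All 5 Atg8 family genes lie between -1.57 and -0.96, while the PI3-kinase genes lie between -0.22 and 0.37.

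These counts moved with the scaling. Total-count scaling raised every ratio by 0.23, which left 26 of 43 below 0 and 3 at least 2-fold lower, beside 35.9% and 8.49% of all genes. Scaling to the median of 20 reference genes lowered every ratio by 0.41. It put 40 below 0 and 17 at least 2-fold lower, beside 66.8% and 21.8% of all genes. The reference genes themselves were spread widely under TMM, from -1.96 (Tfrc) to 1.93 (Tubb5). Of the 20, 1 was at least 2-fold lower and 4 were higher, so they are no stable standard here. Over all genes the split into higher and lower was 1765 and 1421 under TMM, 2510 and 1027 under total-count and 1057 and 2635 under reference-gene scaling. Wipi1, Map1lc3a and Gabarapl2 were at least 2-fold lower under TMM, total-count, DESeq2, upper-quartile and reference-gene scaling alike. The order of the members and the differences between them do not depend on scaling, and the comparisons within families below use this.

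Markers of cell types were read in the same libraries. All 10 osteoclast markers passed the filter, and 9 of them were at least 2-fold lower. Over all genes 11.8% were lower and 14.6% higher. Nfatc1, the master transcription factor of osteoclasts, was at -0.05 (0.18 under total-count scaling). The summed level of the 10 osteoclast markers was 49814 CPM in the control and 11299 CPM in the knockdown library. Ctsk, the collagen-degrading cathepsin, went from 24234 to 4175 CPM. Of 12 macrophage markers 10 were listed and 8 of them passed the filter, and these lay in both directions. Tyrobp (-1.24) and Cd68 (-1.04) were at least 2-fold lower, and 0 were higher by that rule, with the lysozyme gene Lyz2 just short of it at 5.71 and 11.4 CPM (0.998) and Cd14 at 0.35 (-0.06 under reference-gene scaling). The sum over the listed ones, most of it from Csf1r, Cd68, Spi1 and Tyrobp, was 5360 and 3333 CPM. Csf1r, the M-CSF receptor, had 2736 and 1790 CPM. The markers below the filter went in opposite directions. Adgre1, which encodes F4/80, had 0.164 and 0.781 CPM, and Fcgr1 had 1.20 and 0.147 CPM. Of the granulocyte and mast cell markers 0 of 10 were in the table, and of the fibroblast and osteoblast markers 6 of 12, with 0 past the filter and sums of 0.724 and 1.40 CPM. Of 10 lymphoid markers 3 were in the table, and Trac passed the filter with 433 and 61 counts. Each listed gene has at least 1 count in both libraries, so an unlisted marker may still have had reads in 1 of them. In bulk RNA fewer cells of a type and less RNA per cell cannot be told apart, and the part of cell state in the ratios of the autophagy genes was not tested.

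The Atg8 family had the lowest median ratio of the 6 roles with several genes. These small ubiquitin-like proteins are attached to the lipid of the autophagosome membrane, recruit cargo receptors and help the vesicle meet the lysosome. All 5 had ratios below 0 under every scaling tried, with a TMM median log2 ratio of -1.18. At least 2-fold lower were 4 of them under TMM and 2 under total-count scaling, where Gabarap was at -0.95 and Gabarapl1 at -0.78. Over all genes 11.8% were lower, 14.6% higher and 47.5% below 0 under TMM. Under total-count scaling 8.49% were lower and 35.9% below 0, and under reference-gene scaling 66.8% were below 0. The counts of each role below are to be read against these shares too. Gabarap (chromosome 11, 69991143 to 69994951) had 324 CPM in the control and 142 CPM in the knockdown library, a log2 ratio of -1.18 [-1.21 to -1.16]. Gabarapl2, which encodes GATE-16 (chromosome 8, 111940703 to 111953612), had 169 and 68.6 CPM, a ratio of -1.30 [-1.34 to -1.26]. Map1lc3a, the LC3A gene (chromosome 2, 155276297 to 155278073), had 24.3 and 8.20 CPM and the lowest ratio in the family, -1.57 [-1.68 to -1.46].

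Gabarapl1 was just inside the 2-fold rule and Map1lc3b just outside it. Gabarapl1 (chromosome 6, 129533160 to 129542346) had 72.5 and 35.8 CPM, a ratio of -1.02 [-1.07 to -0.96]. Map1lc3b, which encodes LC3B, the form most used as a marker of autophagosomes (chromosome 8, 121590361 to 121598760), had 139 and 71.1 CPM, a ratio of -0.96 [-1.004 to -0.923]. Ordered from the lowest ratio among the 43 genes, the family held places 2, 3, 4, 7 and 11. Its share of all counts was 0.0672% in the control and 0.0354% in the knockdown library.

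The makeup of the family changed little beside its total. Per kilobase of the principal transcript, Gabarap had 239 CPM in the control and 105 CPM in the knockdown library, which was 52.4% and 52.3% of the family's sum. Gabarapl2 held 22.1% and 20.3%, Map1lc3b 12.0% and 13.9%, Gabarapl1 8.72% and 9.77%, and Map1lc3a 4.79% and 3.66%. The order of these per-length levels was the same in both libraries. It depends on the length used. Over the union of all annotated exons, which for Map1lc3b is far longer than its principal transcript, Map1lc3b held 5.71% in the control, below Map1lc3a at 6.37%, and 6.71% in the knockdown library, above Map1lc3a at 4.93%. The ratio of Map1lc3b to Map1lc3a counts was 5.70 in the control and 8.67 in the knockdown library, a difference of 0.60 on the log2 scale (0.49 to 0.72, counting error only).

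**Figure D2:**
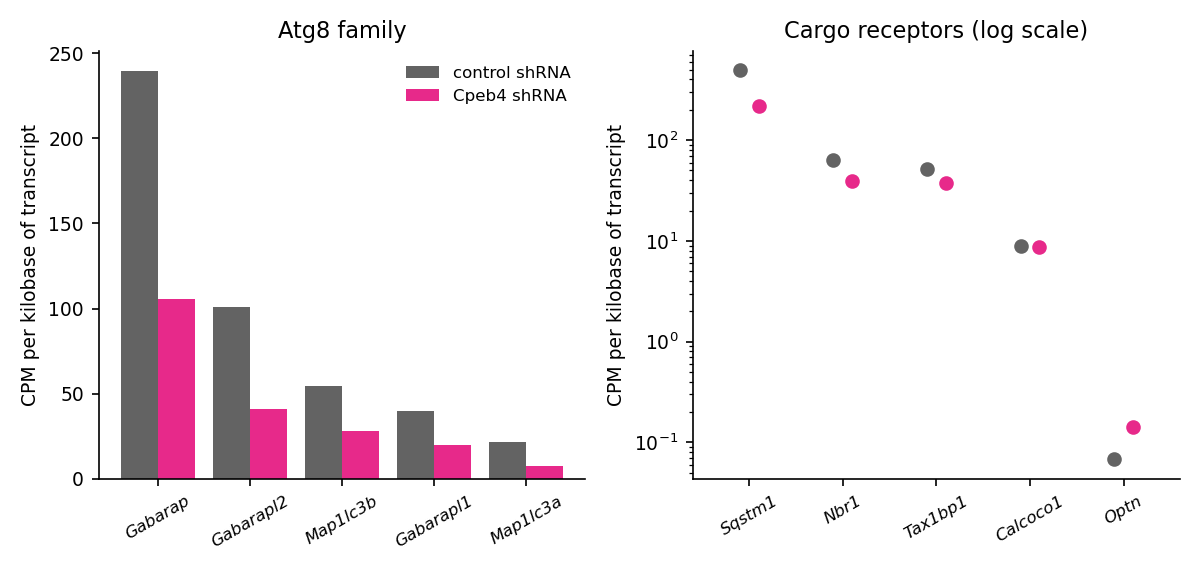
Levels per length (y axis, TMM-scaled CPM per kilobase of the principal transcript) of the Atg8 family (left, bars, linear axis) and of the cargo receptors (right, points, log axis) in the control (grey) and Cpeb4 shRNA (pink) libraries, 1 library each. All 5 Atg8 genes stand lower with the Cpeb4 shRNA, and Sqstm1 goes from 494 to 220 while Calcoco1 goes from 8.86 to 8.61.

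Cargo receptors bind ubiquitin or other marks on cargo with one part and Atg8 proteins with another. Sqstm1, which encodes p62, a receptor that also serves as a scaffold for TRAF6 in RANK signalling (chromosome 11, 50199366 to 50210827), was the most abundant of all members, also per kilobase. It had 1007 CPM in the control and 449 CPM in the knockdown library, a log2 ratio of -1.17 [-1.18 to -1.15]. Under total-count scaling this was -0.93 and no longer past 2-fold. Nbr1, a p62-like receptor, had 306 and 187 CPM (-0.71), and Tax1bp1, which works with p62 on ubiquitin condensates, had 168 and 125 CPM (-0.43). Calcoco1, a receptor for the endoplasmic reticulum and Golgi, had 25.0 and 24.3 CPM (-0.04, and 0.19 under total-count scaling).

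The receptors thus differed from each other as well as between the libraries. Nbr1 counts were 0.304 of the Sqstm1 counts in the control and 0.418 in the knockdown library, a log2 difference of 0.46 (0.43 to 0.49). For Tax1bp1 against Sqstm1 the difference was 0.74 (0.70 to 0.77). Per length, Sqstm1 made up 79.9% of the receptor level in the control and 72.0% in the knockdown library. Optn, the optineurin gene, had 13 and 48 counts (0.178 and 0.371 CPM), too few to pass the filter, so its ratio of 1.06 [0.16 to 2.07] was left out of the counts above.

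Membrane supply held the lowest ratio of all members, and Atg2b was its only gene above 0 under TMM. WIPI proteins read PI3P on the growing membrane. Wipi1 (chromosome 11, 109573331 to 109611967) had 2736 counts, or 37.4 CPM, in the control and 1085 counts, or 8.39 CPM, in the knockdown library. Its log2 ratio of -2.16 [-2.26 to -2.05], a 4.45-fold lower level, was the lowest of the 43. Wipi2, which brings ATG16L1 to the membrane, had 201 and 93.6 CPM, a ratio of -1.10 [-1.14 to -1.07], -0.87 under total-count scaling. Wipi2 exceeded Wipi1 5.37-fold by count in the control and 11.2-fold in the knockdown library, a log2 difference of 1.05 (0.95 to 1.16). Wdr45, the WIPI4 gene, had 20.9 and 16.5 CPM (-0.34).

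The lipid scramblase genes were below 0 and the lipid transfer genes near it. Atg9b had 60.1 and 31.1 CPM (-0.95), Atg9a 98.5 and 64.0 CPM (-0.62), and Vmp1, a scramblase of the endoplasmic reticulum, 96.1 and 62.0 CPM (-0.63). ATG2 proteins form bridges that carry lipid into the membrane. Atg2a had 95.5 and 89.6 CPM (-0.09, and 0.14 under total-count scaling). Atg2b had 67.0 and 82.0 CPM (0.29, and -0.11 under reference-gene scaling). Of the 8 genes of this group 7 were below 0, with a median of -0.63.

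**Figure D3:**
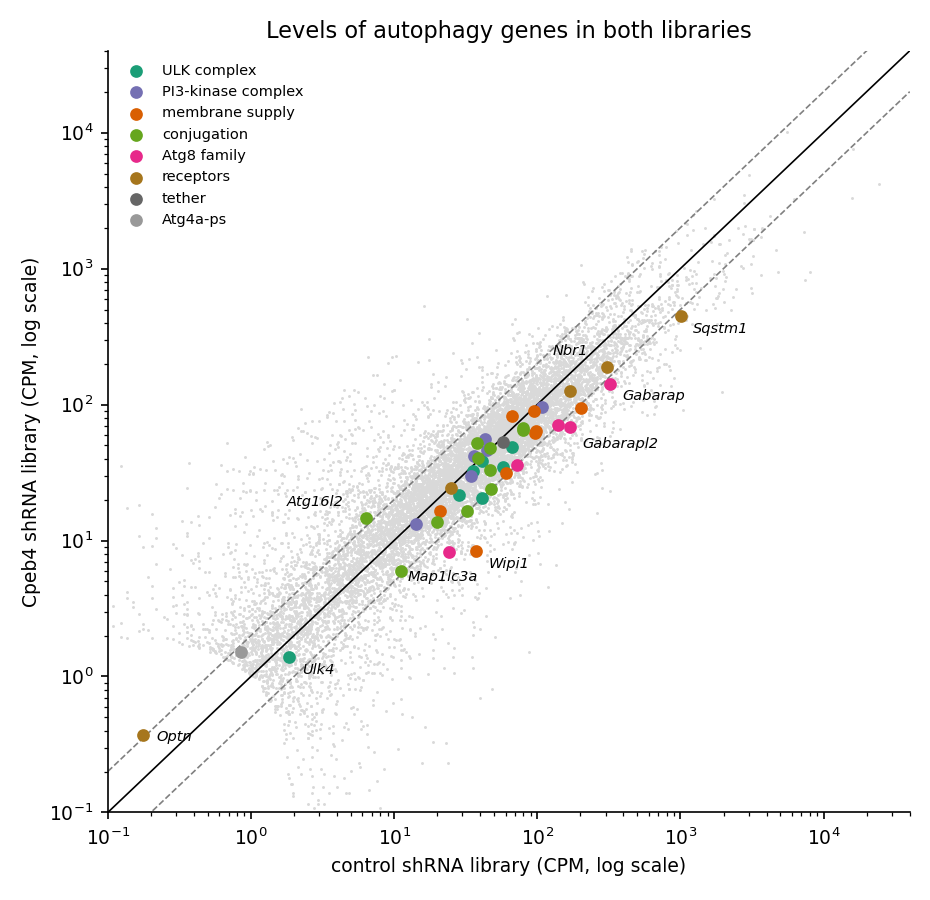
Level of each gene in the control (x axis) and Cpeb4 shRNA (y axis) library, TMM-scaled CPM on log axes. Grey points are all 12086 genes past the filter, coloured points the autophagy machinery by role, the solid line equal levels and the dashed lines 2-fold. Sqstm1, Gabarap, Gabarapl2, Gabarapl1, Map1lc3a, Wipi1 and Wipi2 lie below the lower dashed line. Atg16l2 lies above the upper, as does Optn, a gene below the filter.

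The initiation group also counts Ulk3 and Ulk4, relatives of Ulk1 that are not parts of its complex. Its genes were all below 0 under TMM, 7 of 7 (5 under total-count scaling), and none was past 2-fold. The median of -0.42 was the ratio of Ulk4. Ulk1, the kinase gene that starts autophagy, had 35.8 CPM in the control and 32.3 CPM in the knockdown library (-0.15, and 0.08 under total-count scaling). Its paralog Ulk2 had 57.6 and 34.7 CPM (-0.73). The ratio of Ulk1 to Ulk2 counts was 0.622 and 0.930, a log2 difference of 0.58 (0.49 to 0.67). The scaffold genes Rb1cc1, which encodes FIP200, and Atg13 had 40.8 and 38.2 CPM (-0.10, above 0 under total-count scaling) and 66.9 and 48.7 CPM (-0.46). Atg101, their partner, had 28.6 and 21.7 CPM (-0.40). Ulk3, a related kinase also known from Hedgehog signalling, had 40.9 and 20.6 CPM, a ratio of -0.99 [-1.06 to -0.91] just short of 2-fold. Ulk4, a pseudokinase gene, was low in both libraries, with 136 and 179 counts (-0.42, interval -0.75 to -0.09).

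Under TMM the PI3-kinase complex had the median closest to equal levels. Its 6 genes ranged from -0.22 to 0.37, with a median of -0.03, and 0 passed 2-fold. Becn1, the Beclin 1 gene, had 108 and 96.4 CPM (-0.16). On either strand 45.7% of its 50-base words occur in other genes, among them Cntd1, which overlaps its exons on the other strand. Pik3c3, which encodes the lipid kinase VPS34, had 44.8 and 46.3 CPM (0.05), and Pik3r4, its VPS15 subunit, 34.4 and 29.7 CPM (-0.22). Atg14, which directs the complex to the site of autophagosome formation, had 14.2 and 13.2 CPM (-0.10). Uvrag, the alternative subunit of the endosomal complex, had 36.4 and 42.1 CPM (0.21), and the Beclin 1 regulator Ambra1 43.1 and 55.6 CPM (0.37). Scaling set the sign here: all 6 were below 0 with reference genes and 0 were with total counts.

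The conjugation group, which also holds the ATG16L and ATG4 genes, lay on both sides of equal levels, from -0.99 to 1.204. Its median was -0.29. The 4 genes above 0 were Atg16l1, Atg16l2, Atg4a and Atg4b, described below. The genes of the conjugating enzymes, Atg7, Atg10 and Atg3, were all below 0. Atg7 encodes the E1-like enzyme that activates both ATG12 and the Atg8 proteins. It had 47.5 and 23.9 CPM, a ratio of -0.99 [-1.06 to -0.92]. Atg12 had 32.4 and 16.3 CPM (-0.99) and Atg10, the E2-like enzyme for ATG12, 11.1 and 6.01 CPM (-0.89). Atg5, the partner to which ATG12 is joined, had 46.9 and 32.8 CPM (-0.51), and Atg3, the E2-like enzyme for the Atg8 proteins, 79.9 and 67.6 CPM (-0.24). Atg7, Atg12 and Ulk3, just short of 2-fold under TMM, passed it with DESeq2 and upper-quartile scaling.

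Atg16l2 was the single member at least 2-fold higher. It encodes a paralog of ATG16L1 that binds ATG5 but is known as dispensable for canonical autophagy (chromosome 7, 101263034 to 101302251). It had 465 counts, or 6.35 CPM, in the control and 1893 counts, or 14.6 CPM, in the knockdown library, a ratio of 1.20 [1.06 to 1.35], which was 0.80 under reference-gene scaling. Atg16l1, the platform for LC3 conjugation, had 46.7 and 48.1 CPM (0.04, and -0.36 under reference-gene scaling). Atg16l2 counts were 0.136 of the Atg16l1 counts in the control and 0.304 in the knockdown library, a log2 difference of 1.16 (1.002 to 1.318) that does not depend on scaling. An exon of Atg16l2 overlaps one of Fchsd2 on the other strand, and the sources used here do not say whether counting used strand.

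The ATG4 proteases, which process Atg8 proteins and take them off the membrane again, differed in direction. Atg4a had 37.8 and 52.1 CPM (0.46), Atg4b 38.5 and 40.7 CPM (0.08, and -0.33 under reference-gene scaling), Atg4d 79.3 and 64.6 CPM (-0.29), and Atg4c 19.9 and 13.6 CPM (-0.55). Atg4a is uncertain, because 63.6% of the 50-base words of its transcript recur in other genes, chiefly the copy Atg4a-ps. Atg4a-ps had 62 and 195 counts (0.83), so reads of this pair may have been divided between them. Epg5, whose protein tethers autophagosomes to lysosomes, had 58.0 and 53.3 CPM (-0.12, and 0.11 under total-count scaling).

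Shared sequence touches other members too. For 21 of the 44 no 50-base word of the transcript occurred in another annotated gene, Sqstm1, Gabarap, Map1lc3a, Wipi1, Wipi2 and Atg7 among them. Over 10% was shared for 10, among them Gabarapl2 (17.0%) and Map1lc3b (13.8%), which have copies elsewhere in the genome. Wdr45 shared 46.2% with Gm45208 and Atg9a 43.9% with Gm29253, genes that overlap their exons on the same strand. Reads of these pairs may not have been told apart, so the ratios of Wdr45 and Atg9a are uncertain. The exons of 18 members overlapped another gene, as those of Gabarapl1 did with 1700101I11Rik (18.6% of words) and those of Atg9b with Nos3 (6.36%). Those of Sqstm1 overlapped Mrnip on the other strand, though no word of its principal transcript was shared. The word search used 1 transcript per member and the overlap all annotated exons, and the strand setting of the counting is not known.

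CPEB proteins bind the cytoplasmic polyadenylation element, TTTTAT or TTTTAAT in the DNA spelling, near the end of the 3′ UTR. In the last 100 bases of the principal transcript, read on the sense strand, 4 of 42 members past the filter with a UTR of that length held one (9.52%), against 20.1% of 9938 genes past the filter. They were Map1lc3b, Epg5, Atg16l1 and Atg2b, and all 4 also had a polyadenylation signal (AATAAA or ATTAAA) in that window. Anywhere in the UTR 26 of 42 members held one (61.9% against 62.8%), in UTRs with a median of 1149 bases against 1090 over all genes. None of the 7 members at least 2-fold lower had one in the last 100 bases. Elsewhere in the UTR Wipi1 held 1, Gabarapl2 1 and Wipi2 2. The last 100 bases of the Wipi2 transcript held no polyadenylation signal. Among all genes that passed the filter the median ratio (log2) was 0.13 with the element in that window and -0.01 without it. The sites of 3 of them are shown with the last element in capitals, as 30 bases of the annotated transcript. Map1lc3b holds 2 elements there, and its TTTTAAT stands in lower case directly before the capitals.
Map1lc3b: tttttttttaatTTTTATtttccgtacatt
Atg16l1: ccagggcacatcTTTTATttatttaattat
Atg2b: aatgaataaagtatTTTTATttaaaggtaa

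In the order shown, the genes had log2 ratios of -0.96, 0.04 and 0.29, and the element lay 40, 79 and 16 bases before the transcript end. In GC content of the exons the members had a median of 51.1% against 49.9% over all genes, and in exonic length 5762 against 4142 bases. After removal of the trend of the ratio with both, an alternative added after the data were seen, the median of the members was -0.43, with 8 at least 2-fold lower, Gabarapl1 (-0.996) leaving that set and Atg10 and Atg12 joining it. The ratios of Atg16l1, Atg2a, Calcoco1, Pik3c3 and Ulk1, all near 0, changed sign under it.

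The wider pathway was examined with 73 further genes in 5 lists, of which 72 were in the table and all 72 passed the filter. In these lists 18 were at least 2-fold lower and 2 higher, and 59 were below 0, with a median of -0.58. The shares over all genes, against which the counts of each list below are to be read too, were 11.8% lower, 14.6% higher and 47.5% below 0. Under total-count scaling 11 were lower (8.49% of all genes) and under reference-gene scaling 35 (21.8%). Genes of nutrient control, which link the lysosome surface and the kinases mTOR and AMPK to autophagy, had 0 of 19 past 2-fold and a median of -0.27. The GTPase gene Rragc (-0.97) and the Ragulator gene Lamtor4 (-0.96) were lowest, and Mlst8 (0.42) and Tsc1 (0.14, -0.27 under reference-gene scaling) highest. Mtor had 106 and 113 CPM (0.09, also below 0 under that scaling).

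Among 9 further genes of membrane supply 5 were at least 2-fold lower and all were below 0 under TMM, total-count and reference-gene scaling. Trp53inp1, a stress-induced LC3-binding protein gene, had 69.0 and 9.63 CPM (-2.84). Tmem41b, a scramblase gene that partners VMP1, had 143 and 31.9 CPM (-2.17). Wdr45b (-0.30) and Ei24 (-0.27) were highest. Of 9 regulators of the PI3-kinase complex past the filter 3 were lower, with Bcl2l1 (-1.24) and Sh3glb1 (-1.04) lowest, and Mtmr14 (0.04) and Dapk1 (0.11) highest, the last pair below 0 under reference-gene scaling.

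Further receptors and their helpers numbered 17, with 6 lower and 1 higher and a median of -0.60. The mitophagy receptor gene Bnip3 had 66.3 and 15.7 CPM (-2.08), and Tex264, a receptor for the endoplasmic reticulum, 105 and 29.3 CPM (-1.84). Hdac6, the deacetylase that gathers ubiquitinated aggregates, had 16.4 and 32.8 CPM (1.001, and 0.59 under reference-gene scaling), and the ubiquitin ligase gene Cbl was at 0.57. Of 18 genes for fusion with the lysosome 4 were lower and 1 higher, with a median of -0.69. Plekhm1, an adaptor between RAB7, the fusion machinery and LC3 that is mutated in osteopetrosis, had 701 and 212 CPM (-1.73), and Rilp, an effector of RAB7, 11.1 and 4.20 CPM (-1.40). The HOPS subunit gene Vps16 was at 0.57, and Lamp1, a major lysosomal membrane protein gene, had 121 and 271 CPM (1.16).

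**Figure D4:**
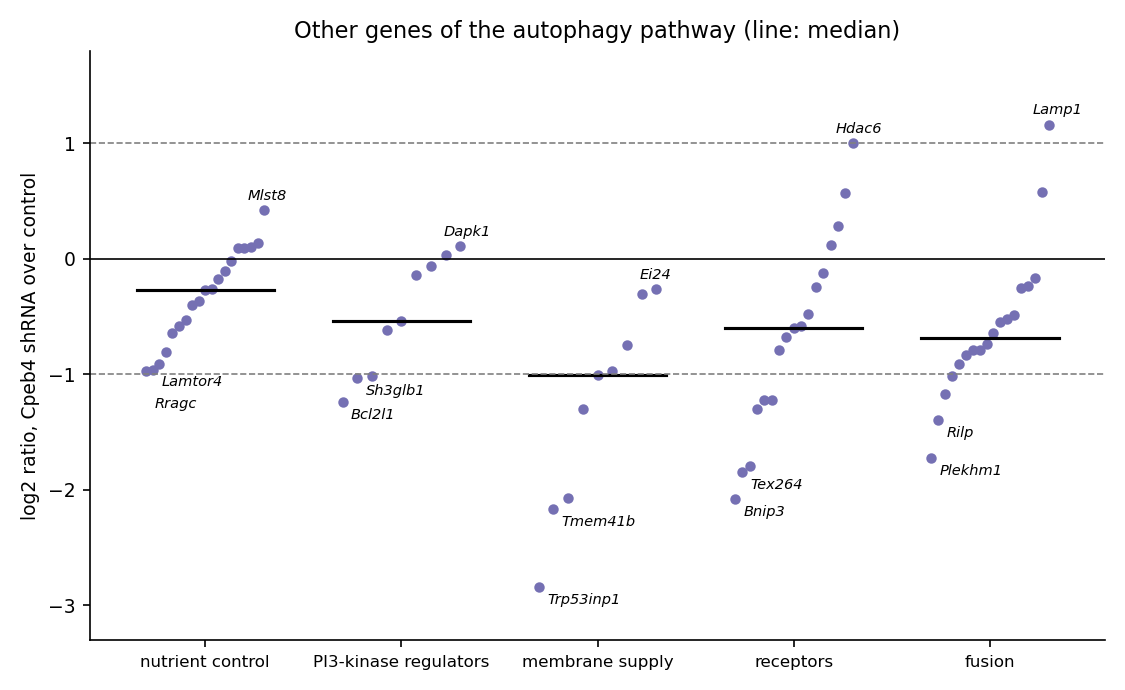
Log2 ratio (y axis, Cpeb4 shRNA over control, TMM-scaled CPM) of the 72 further autophagy genes in 5 lists, each point 1 gene, ordered by ratio within a list. Black lines are list medians and dashed lines 2-fold. The medians lie between -1.01 for membrane supply and -0.27 for nutrient control, and Lamp1 and Hdac6 are the 2 genes at or above the upper dashed line.

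**Figure D5:**
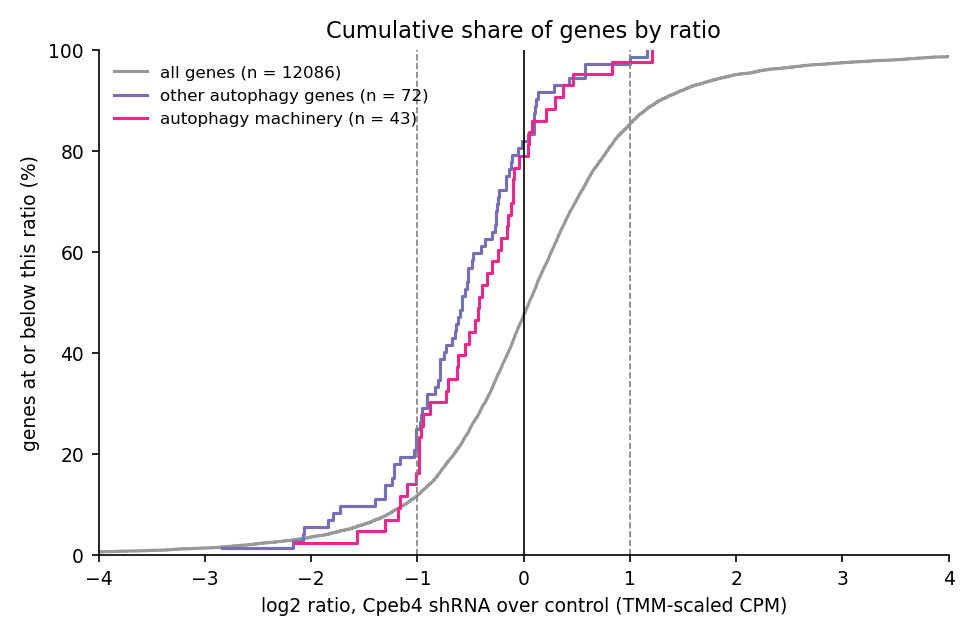
Share of genes (y axis, percent) at or below each log2 ratio (x axis, Cpeb4 shRNA over control) for all 12086 genes past the filter, the 72 further autophagy genes and the 43 machinery genes. Of the machinery genes 79.1% lie below 0, against 47.5% of all genes, and the curves of both autophagy groups run to the left of the curve of all genes over most of the range.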

How the data were processed

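Gene counts came from 2 libraries, 1 per group. The authors deposited whole-number counts per gene. HISAT2 and the build mm10 are named, per the submitters' processing notes. The sources used here do not name the counting tool, the annotation or the strand setting. Each listed gene has at least 1 count in both libraries, and the values may be rounded estimates, so intervals are approximate.

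TMM factors came from edgeR 4.0.16 (R 4.3.3), 0.922 for the control and 1.08 for the knockdown library. Intervals of ratios are exact Clopper-Pearson intervals of a gene's share of both counts, and those of differences between genes are normal approximations. Both cover counting error only, and may be too narrow even for that, since PCR copies are not independent molecules. Positions, lengths and UTRs came from GENCODE M21 (18954 identifiers matched) and promoters from RefSeq. The principal transcript was the APPRIS principal one, the longest where there were several.

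The members and lists were chosen with earlier results of these data known, and the GC box, the AP-1 word and the longer polyadenylation element were added after the files were seen. Named were members at least 2-fold different, each role's members, the 2 highest and 2 lowest genes of each further list, and some others chosen after their values were seen (Mtor and the cell type markers). Alternatives were total-count, DESeq2 1.42.0, upper-quartile and reference-gene scaling, a pseudocount of 2 CPM, thinning of the deeper library, other filters and other size rules. The steps were tested on simulated data.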

Additional observations from a re-analysis of the deposited data

How the results depend on the processing

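No paired analysis was possible because there was a single library in either arm, which also left no replicate to omit. The direction of the median of the 43 machinery genes was the same under every alternative. Total-count scaling gave 3 members at least 2-fold lower and 2 higher, 11 further genes lower, and medians of -0.19 for all members and for initiation, 0.20 for the PI3-kinase genes, -0.39 for membrane supply, -0.061 for conjugation, -0.95 for the Atg8 family and -0.34 for receptors, with Cpeb4 at -1.49. Reference-gene scaling gave 17 members lower and 0 higher, 35 further genes lower and 0 higher, and medians in the same order of -0.83, -0.83, -0.44, -1.03, -0.70, -1.59 and -0.98, with Cpeb4 at -2.13. With DESeq2 size factors 1 further gene was higher. With upper-quartile scaling this was also 1, receptors were at -0.61 and Cpeb4 at -1.76. A pseudocount of 2 CPM left 0 members and 1 further gene higher. Thinning the deeper library gave 11 members lower, 1 further gene higher and Cpeb4 at -1.76. Without a filter 2 members were higher, Optn being the added one, and receptors were at -0.43. At 1.5-fold 17 members were lower and 2 higher, and 36 further genes lower. At 4-fold 1 member was lower and 0 higher, and 4 further genes lower and 0 higher. Requiring the counting interval to lie past 2-fold left 1 further gene higher. Apart from the shifts of scaling, which move every ratio alike, the cause of these moves was not tested. Depth limits Optn, Atg4a-ps and Ulk4, whose counts were under 200 in both libraries.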

Other observations

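The MiT transcription factors, which bind CACGTG and drive autophagy and lysosome genes, were looked up after the values of the machinery were seen. Tfeb had 21.4 CPM in the control and 13.9 CPM in the knockdown library, a log2 ratio of -0.63 [-0.73 to -0.53]. Tfec had 13.3 and 7.54 CPM, a ratio of -0.82 [-0.95 to -0.69]. Mitf, the member of the family long tied to osteoclasts, had 87.3 and 135 CPM, a ratio of 0.62 [0.58 to 0.67]. Tfe3 had 66.6 and 79.4 CPM, a ratio of 0.25 [0.20 to 0.30], which was -0.15 under reference-gene scaling. The family was thus split, with Tfeb and Tfec below 0 and Mitf above 0 under TMM, total-count and reference-gene scaling.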
